A study of Mus musculus with 6 samples.

Results

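The HOX genes of the HoxA, HoxB, HoxC and HoxD clusters were examined in tumour cells grown with or without added stromal cells. They were taken as every gene whose symbol is Hox, a letter from a to d and a number, and 34 of the 18182 genes in the files are described: 10 of HoxA and 8 each of HoxB, HoxC and HoxD. The tumour cells came from the Lewis lung carcinoma (LLC) line, started from a mouse lung tumour, and carried red fluorescent protein (RFP). Wild type C57BL/6 mice received them under the skin either as LLC-RFP alone (LLC alone) or as LLC-RFP with BMSCs (LLC with BMSCs), BMSCs being bone marrow-derived mesenchymal stem cells. RFP-positive cells were then sorted from the primary tumours and sequenced in 3 libraries per group. The mice had the same strain and genotype in both groups, the tumour cells were a single transplanted line, and the labels give no age and do not say how many mice a library came from. The p values below therefore measure the spread between these libraries, which may be in part technical.

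HOX genes encode homeodomain transcription factors that give positional identity to cells along the body axis and the limbs. They stand side by side within each cluster, numbered by paralog group, so that genes with the same number in different clusters are the closest relatives. Genes with low numbers are active earlier and nearer the head, and those with high numbers later and nearer the tail or the ends of the limbs. Adult mesenchymal cells keep a HOX pattern that reflects the place in the body they came from, and many tumour lines keep or gain one too. Pbx, Meis and Pknox proteins bind DNA together with HOX proteins, and Polycomb and Trithorax proteins hold the clusters silent or active.

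The libraries held between 33476347 and 46189113 fragments on genes. LLC alone replicate 3 stood furthest from the others of its group: the median chi-square of its counts against replicates 1 and 2 was 13.7 to 14.2 times that of counting noise, against 1.96 times between replicates 1 and 2. In LLC with BMSCs, replicate 1 stood apart, at 5.04 to 5.15 times, against 1.69 times between replicates 2 and 3. Each group thus held a close pair and a library further off. Cell type markers differed between the groups as well. The summed level of 16 mesenchymal stromal markers was 651 to 699 CPM (counts scaled to a common library total) in LLC alone and 1091 to 1138 CPM in LLC with BMSCs. Much of that sum was Col3a1, at means of 228 CPM in LLC alone and 546 CPM with BMSCs. Prrx1, Twist2 and Eng were at means of 139, 132 and 97.7 CPM in LLC alone. The list thus held genes already high in LLC alone, and how much came from other cells was not tested. Of the 13 stromal markers tested, 12 were higher with BMSCs and Twist2 was lower. For scale, 31.5% of all genes tested were called higher and 31.3% lower. Summed neutrophil markers were at 0.436 to 0.750 CPM in LLC alone and at 21.8 to 25.1 CPM with BMSCs. All 6 neutrophil markers tested were higher, and S100a9 and S100a8 held most of the sum with BMSCs, at means of 10.3 and 6.42 CPM. In LLC alone, Mmp8 had no fragment, and S100a8, S100a9, Ngp and Csf3r had means of at most 0.0273 CPM. The minimum of the filter on low counts was 0.226 CPM. These markers thus passed it only through LLC with BMSCs, so their direction was built into their passing. Ly6g was not tested, at means of 0.0663 CPM in LLC alone and 0.0374 CPM with BMSCs, and Retnlg had no fragment in either group. Summed macrophage markers were at 23.9 to 29.0 and 33.8 to 35.9 CPM, lymphocyte markers did not pass 0.395 CPM, and endothelial markers did not pass 1.14 CPM in any library. Keratinocyte and adipocyte markers did not pass 0.0225 and 0.0439 CPM, and summed muscle markers were at 5.36 to 6.71 CPM in LLC alone and 3.12 to 4.26 CPM with BMSCs. Of the epithelial markers, Krt8 (a keratin) was at means of 167 CPM in LLC alone and 189.5 CPM with BMSCs (edgeR adjusted p = 0.0374). Krt18, another keratin, was at means of 0.113 and 0.862 CPM (edgeR adjusted p = 0.000221), whereas Epcam and Cdh1 stayed under 0.1 CPM in both groups. The 7 lung epithelial markers summed to 1.71 to 2.22 CPM in LLC alone and 4.23 to 6.27 CPM with BMSCs. Ager held most of that sum, at means of 1.85 and 5.08 CPM, and was higher with BMSCs (adjusted p = 0.0003), while Nkx2-1, Sftpc and Sftpb were under 0.1 CPM in both groups.

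LLC cells expressed a narrow set of HOX genes, drawn from HoxA and HoxD. The mean level in LLC alone was at least 1 FPKM (fragments divided by transcript length and library total, a level per length) for 8 of the 34 genes. These were Hoxa3, Hoxa7, Hoxa9, Hoxa10, Hoxd4, Hoxd8, Hoxd9 and Hoxd10. HoxD genes took 73.0% to 74.0% of the summed FPKM of these genes in each LLC alone library, and HoxA genes took 25.8% to 26.7%. HoxC took at most 0.267% and HoxB at most 0.0206%. By paralog group, groups 8, 9 and 10 held mean sums of 26.4 ± 1.90, 30.8 ± 3.12 and 29.7 ± 2.46 FPKM (SD, n = 3), group 7 held 7.0 ± 0.635 and group 4 held 5.06 ± 0.556. The 7 genes of groups 11 to 13 together reached only 0.367 ± 0.0321 FPKM. The pattern was thus centred on the middle and upper middle of the clusters and ended sharply above group 10.

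**Figure D1:**
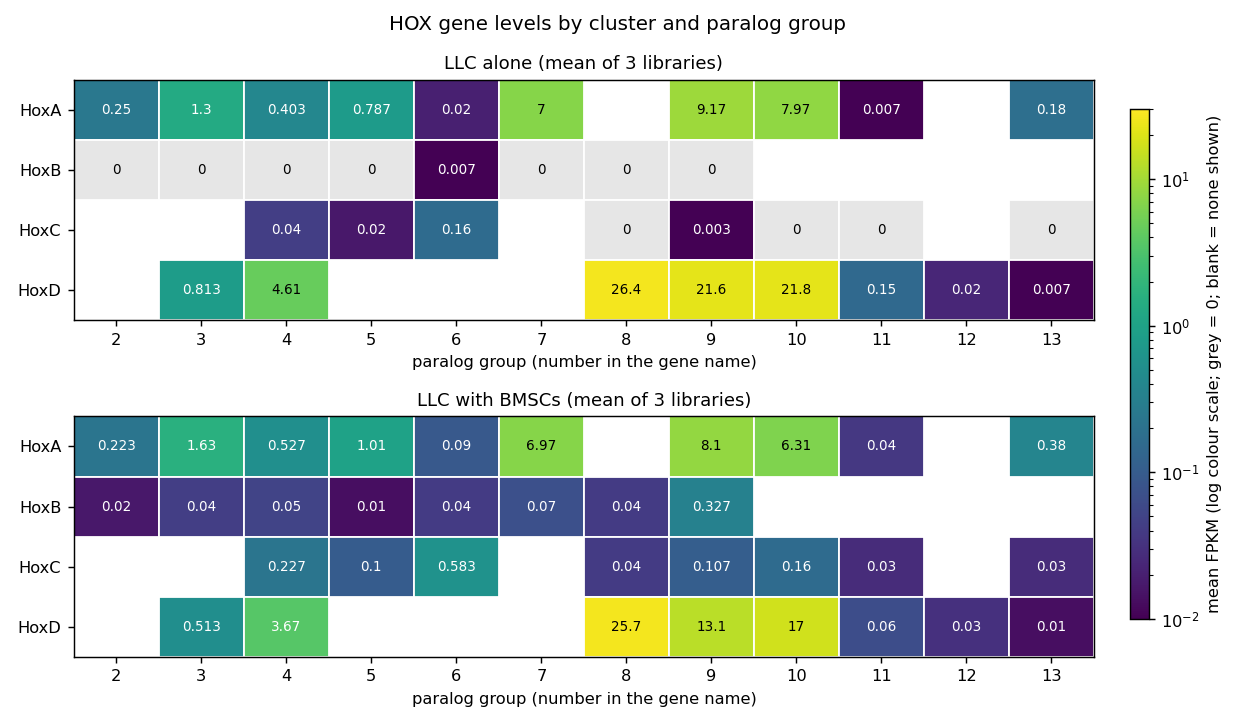
Mean FPKM of each HOX gene in LLC alone (upper panel) and LLC with BMSCs (lower panel), with the cluster on the y axis and the paralog group on the x axis; colour is on a log scale, grey marks a mean of 0 and a blank marks a position with no value shown. The bright squares are Hoxd8, Hoxd9 and Hoxd10 at 21.6 to 26.4 FPKM in LLC alone, followed by Hoxa7, Hoxa9 and Hoxa10, while the HoxB row is at or next to 0.

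Hoxd8 was the most abundant HOX gene, at 25.2, 25.4 and 28.6 FPKM in LLC alone replicates 1 to 3. Hoxd10 followed at 21.2, 20.2 and 23.9 FPKM and Hoxd9 at 21.2, 19.5 and 24.1 FPKM. The lowest Hoxd8 library lay above the highest Hoxd9 and Hoxd10 libraries, whereas Hoxd9 and Hoxd10 could not be put in order. Hoxa9, at 8.31 to 10.2 FPKM, Hoxa10, at 7.63 to 8.59 FPKM, and Hoxa7, at 6.58 to 7.73 FPKM, came next, and each overlapped its neighbour in the order. Hoxd4, at 4.05 to 5.04 FPKM, lay below all of these and above Hoxa3, at 0.960 to 1.48 FPKM. For scale, the median gene among the 13353 tested stood at 8.72 FPKM in LLC alone, so only 4 HOX genes lay above the typical tested gene. The edge of the expressed block was steep in both clusters. Within a library of LLC alone, Hoxd10 exceeded its neighbour Hoxd11 by 101 to 217 times per length, and Hoxa10 exceeded Hoxa13, the HoxA gene at the tail end, by 37.4 to 63.6 times.

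Below 1 FPKM in LLC alone came Hoxd3, Hoxa5, Hoxa4 and Hoxa2, with means from 0.813 down to 0.250 FPKM, then Hoxa13, Hoxc6 and Hoxd11, with means from 0.180 to 0.150 FPKM. Hoxc4, Hoxd12, Hoxa6, Hoxc5, Hoxa11, Hoxb6, Hoxd13 and Hoxc9 had fragments in at least 1 library but stayed under 0.1 FPKM in each. The other 11 genes, 7 of HoxB and Hoxc8, Hoxc10, Hoxc11 and Hoxc13, had no fragment in any LLC alone library. At this depth a count of 0 allows up to 3 fragments in a library, and this limit covers counting error only. In LLC with BMSCs all 34 genes had at least 1 fragment.

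Of the 34 genes, 18 passed the filter on low counts and entered the test between the 2 groups (edgeR quasi-likelihood test over 13353 genes, Benjamini-Hochberg adjustment, threshold 0.05). Of these 18, 5 were higher with BMSCs (Hoxa13, Hoxb9, Hoxc4, Hoxc6 and Hoxc10), 5 were lower (Hoxa10, Hoxd3, Hoxd9, Hoxd10 and Hoxd11) and 8 were not called. Over all genes tested, 31.5% were called higher, 31.3% lower and 62.9% in either direction, so the HOX genes were called about as often as the rest. Their median log2 fold change was -0.03, against 0.01 for all genes tested. Normalised counts of the groups did not overlap for 5 HOX genes that were higher and 6 that were lower, which compares with 36.7% and 34.6% of all genes. By cluster, no tested HoxD gene was higher, with 4 of 6 lower, and no tested HoxB or HoxC gene was lower, with 4 of 4 higher. HoxA had 1 higher, 1 lower and 6 not called. Hoxb9, Hoxc4 and Hoxc10 passed the filter only through the group in which they were high, so a difference in their direction was built into their passing. When LLC alone replicate 3 was left out, all 10 calls were kept.

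**Figure D2:**
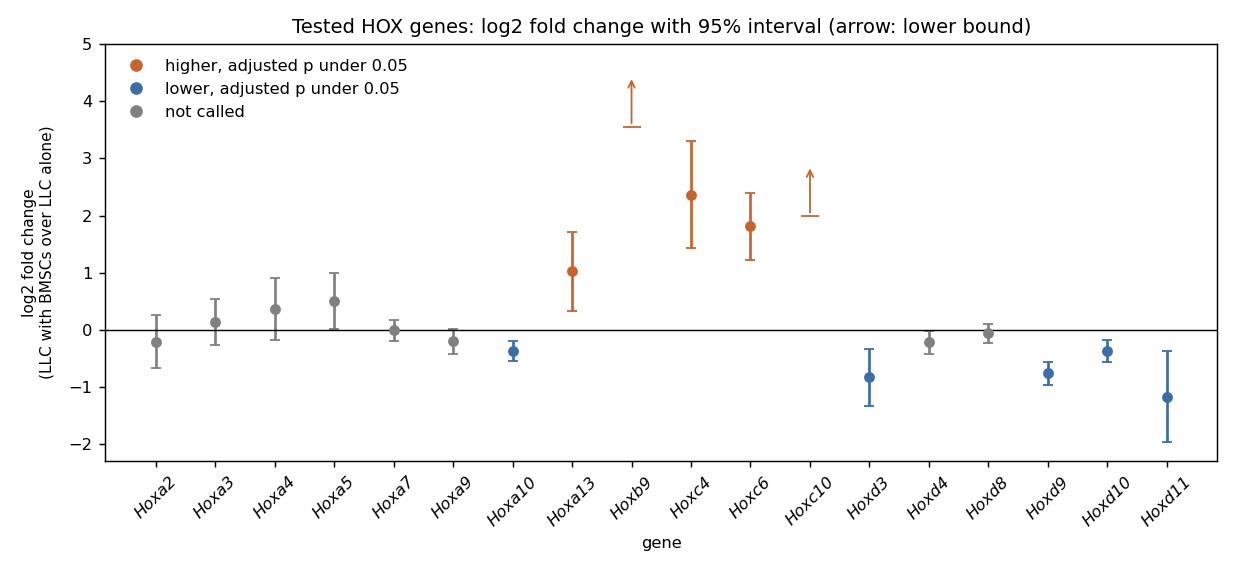
Log2 fold change of LLC with BMSCs over LLC alone (y axis) for the 18 tested HOX genes (x axis), with 95% intervals from the edgeR fit; orange is higher, blue lower and grey not called, and an arrow starts at the lower bound of a gene with no fragment in LLC alone. The HoxD genes sit at or below 0, from -0.06 for Hoxd8 to -1.17 for Hoxd11, and the HoxB and HoxC genes sit above 1.

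In HoxD, the genes of the expressed block did not move alike. Hoxd9, a member of the group that patterns the posterior trunk and the limb, stood at 21.2, 19.5 and 24.1 FPKM in LLC alone and at 13.8, 12.5 and 13 FPKM in LLC with BMSCs. All libraries with BMSCs lay below all libraries of LLC alone. The fitted log2 fold change was -0.76 (SE 0.0864, adjusted p = 0.00019), the call with the smallest adjusted p of the 18 genes. Hoxd10, its neighbour on the posterior side, stood at 21.2, 20.2 and 23.9 FPKM against 15.8, 18.0 and 17.4 FPKM, again without overlap, and fell by 0.38 on the log2 scale (SE 0.0826, adjusted p = 0.00495). Hoxd8, on the other side of Hoxd9, stood at 25.2, 25.4 and 28.6 FPKM against 23.9, 26.7 and 26.3 FPKM. Its groups overlapped, its log2 fold change was -0.06 (SE 0.0717, adjusted p = 0.50), and its 95% interval ran from -0.22 to 0.11. The ratio of Hoxd8 to Hoxd9 within a library was 1.18 to 1.31 in LLC alone and 1.74 to 2.15 with BMSCs, and that of Hoxd8 to Hoxd10 was 1.19 to 1.26 and 1.49 to 1.52. As deposited, Hoxd9 and Hoxd10 were level with each other in LLC alone, and Hoxd10 lay above Hoxd9 in every library with BMSCs. Their order depends on how the authors' program divided fragments between them, and the change of order was not tested.

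Because these 3 neighbours were the most abundant HOX genes and did not change together, the 250 bases before their RefSeq transcription starts are printed, with the paralog Hoxb8, which had no fragment in LLC alone, as a silent counterpart. The sequences are from build GRCm38.p6, on the plus strand, at chr2:74704365-74704614 (Hoxd8), chr2:74697513-74697762 (Hoxd9), chr2:74691641-74691890 (Hoxd10) and chr11:96281655-96281904 (Hoxb8). They run 5′ to 3′ and capitals mark CG dinucleotides, the sites at which vertebrate promoters can be methylated.
Hoxd8: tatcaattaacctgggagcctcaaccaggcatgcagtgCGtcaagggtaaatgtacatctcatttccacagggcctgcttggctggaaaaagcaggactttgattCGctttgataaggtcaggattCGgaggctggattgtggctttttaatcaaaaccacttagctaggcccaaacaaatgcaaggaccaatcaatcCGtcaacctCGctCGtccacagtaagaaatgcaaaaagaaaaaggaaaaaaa
Hoxd9: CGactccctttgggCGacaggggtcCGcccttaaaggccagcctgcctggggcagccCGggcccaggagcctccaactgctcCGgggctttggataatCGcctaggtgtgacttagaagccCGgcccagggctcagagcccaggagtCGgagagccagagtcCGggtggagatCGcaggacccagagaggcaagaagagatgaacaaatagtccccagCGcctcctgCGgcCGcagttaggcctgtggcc
Hoxd10: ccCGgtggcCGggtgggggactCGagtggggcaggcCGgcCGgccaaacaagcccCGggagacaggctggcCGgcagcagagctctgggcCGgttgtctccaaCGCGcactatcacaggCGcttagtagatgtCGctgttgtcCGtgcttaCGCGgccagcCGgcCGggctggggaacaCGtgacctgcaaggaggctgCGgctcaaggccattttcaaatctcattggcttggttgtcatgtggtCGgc
Hoxb8: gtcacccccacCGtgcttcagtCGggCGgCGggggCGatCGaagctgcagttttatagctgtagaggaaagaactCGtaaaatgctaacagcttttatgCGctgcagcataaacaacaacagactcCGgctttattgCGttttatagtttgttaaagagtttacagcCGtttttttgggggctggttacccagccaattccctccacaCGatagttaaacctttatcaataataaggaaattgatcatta
The Hoxd10 stretch holds 20 CG and is 65.6% G and C, the Hoxd9 stretch holds 13 CG and is 65.2% G and C, and the Hoxd8 stretch holds 6 CG and is 44.4% G and C. The Hoxb8 stretch holds 12 CG and is 44.4% G and C. Over 22 such stretches for 20 of the 34 genes, those of genes at 1 FPKM or more in LLC alone had a median of 7 CG and a range of 3 to 20, and the others had a median of 13 and a range of 2 to 35. All 32851 RefSeq promoters of the table had a median of 6. The range of the expressed genes thus lay within that of the others. Of HoxB and HoxC, only Hoxb4, Hoxb8 and Hoxc4 had such a stretch, so the others were mostly HoxA and HoxD genes. The letters TGATNNAT, the core of sites bound by Pbx with HOX proteins, were searched on both strands. They occurred in the stretches of Hoxa2, Hoxb8 and 1 of the 2 Hoxd11 starts, and in 7.68% of all promoters.

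The counts of Hoxd9 and Hoxd10 were not whole numbers, but their sum was whole in all 6 libraries to within 0.011, so the authors' program had divided fragments between these neighbours. The summed pair held 3909, 2643 and 4377 fragments in LLC alone and 2592, 2592 and 2605 in LLC with BMSCs. In a fit with the pair as 1 feature, which was added after the counts were seen, the log2 fold change was -0.57 (SE 0.0781, adjusted p = 0.000461). The sum does not depend on how fragments were divided, whereas the separate values of Hoxd9 and Hoxd10 do.

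Hoxd4 and Hoxd3, towards the anterior end of the cluster, shared fragments in the same way. Hoxd4 stood at 5.04, 4.74 and 4.05 FPKM in LLC alone and at 3.81, 3.6 and 3.6 FPKM in LLC with BMSCs. Its FPKM values did not overlap but its normalised counts did, and its log2 fold change of -0.22 (SE 0.086) was not called at an adjusted p of 0.0577. The call depended on the scaling, on 1 library and on the handling of gene length. Hoxd4 was called lower with upper-quartile scaling (adjusted p = 0.0268) and in limma on log2(FPKM + 1) or log2(FPKM + 0.1) (adjusted p = 0.0199 and 0.0209). Without LLC alone replicate 3, Hoxd4 was called at a log2 fold change of -0.30 and an adjusted p of 0.000807, and with the trend over gene length removed it was called at -0.44 and an adjusted p of 2.82e-05. Hoxd3 stood at 0.720, 0.970 and 0.750 FPKM against 0.700, 0.360 and 0.480 FPKM, and fell by 0.83 on the log2 scale (SE 0.214, adjusted p = 0.0104). Summed as 1 feature, Hoxd3 and Hoxd4 held 1430, 1038 and 1168 fragments against 1128, 1048 and 1071, and the log2 fold change was -0.27 (SE 0.0866, adjusted p = 0.0279).

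The posterior HoxD genes were close to silent. Hoxd11, which patterns the forearm, had 26, 26 and 19 fragments in LLC alone (0.140, 0.200 and 0.110 FPKM) and 16, 9 and 9 with BMSCs (0.090, 0.050 and 0.050 FPKM). It fell by 1.17 on the log2 scale (SE 0.339, adjusted p = 0.0178). That call was lost without LLC alone replicate 2, without LLC with BMSCs replicate 2 or without LLC with BMSCs replicate 3, at adjusted p of 0.0513, 0.0631 and 0.0654. Hoxd12 had 1 to 4 fragments in each of the 6 libraries and Hoxd13, the gene of the digits, had 0 to 2, so neither was tested. Summed over the 8 HoxD genes, the level was 75.4 ± 5.50 FPKM in LLC alone and 60.1 ± 1.67 FPKM with BMSCs (SD, n = 3).

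**Figure D3:**
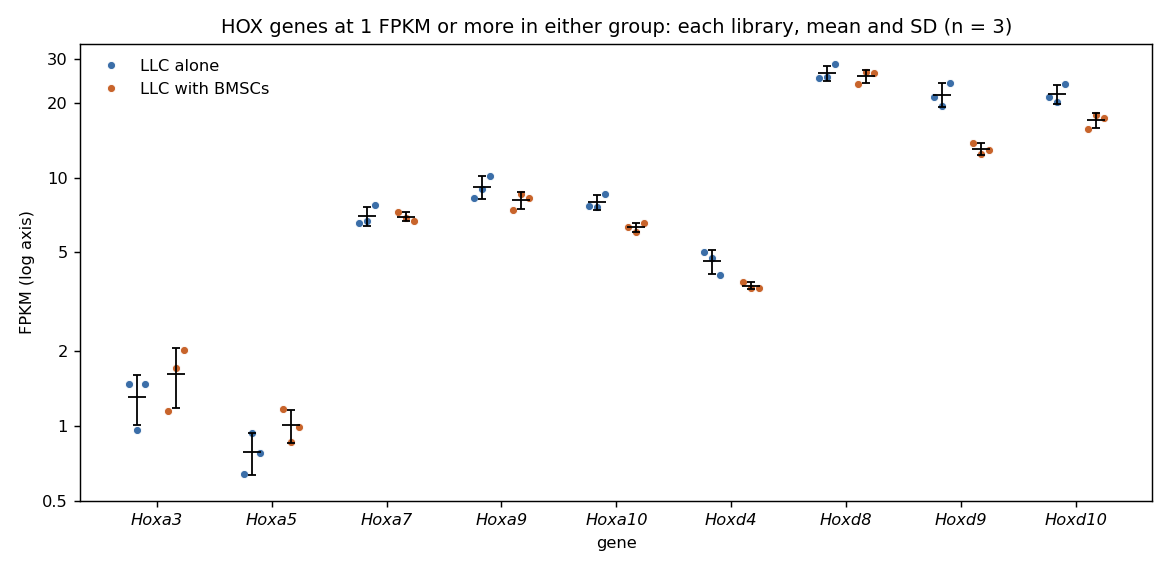
FPKM (y axis, log scale) of the 9 HOX genes with a mean of at least 1 FPKM in either group (x axis); each point is a library, and the black marks are the mean and SD of 3 libraries. Hoxd9, Hoxd10 and Hoxa10 are lower in all 3 libraries with BMSCs than in any library of LLC alone, while the points of Hoxd8 and Hoxa7 lie among each other.

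In HoxA, 1 gene of the expressed block, Hoxa10, was lower and Hoxa13, at the posterior end, was higher. Hoxa10, a paralog of Hoxd10 with roles in the uterus, the limb and blood progenitors, stood at 7.70, 7.63 and 8.59 FPKM in LLC alone and at 6.34, 6.03 and 6.56 FPKM with BMSCs. The groups did not overlap and the gene fell by 0.38 on the log2 scale (SE 0.0752, adjusted p = 0.00309), which is the same rounded size as for Hoxd10. Hoxa9, known as a driver of acute myeloid leukaemia, stood at 8.31, 8.99 and 10.2 FPKM against 7.41, 8.63 and 8.25 FPKM. Its log2 fold change was -0.20 (SE 0.0922, adjusted p = 0.0878) and its interval ran from -0.42 to 0.01. Without LLC alone replicate 1 it was called lower, at -0.27 and an adjusted p of 0.0430, and with the trend over gene length removed it was called at -0.23 and an adjusted p of 0.0487. Hoxa7 stood at 6.58, 6.69 and 7.73 FPKM against 7.30, 6.88 and 6.72 FPKM, with a log2 fold change of -0.01 (SE 0.078, adjusted p = 0.937) and an interval from -0.19 to 0.17. A change of Hoxa7 as large as that of Hoxd9 lay outside that interval.

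Hoxa13, the HoxA gene of the digits and the hindgut, had 11, 5 and 13 fragments in LLC alone and 26, 20 and 17 with BMSCs. It was higher by 1.02 on the log2 scale (SE 0.299, adjusted p = 0.0180), and the call was lost without LLC with BMSCs replicate 1, at 0.85 and an adjusted p of 0.0615. Its level stayed low, at 0.180 ± 0.0557 FPKM in LLC alone and 0.380 ± 0.0819 FPKM with BMSCs (SD, n = 3).

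Hoxa3, Hoxa5 and Hoxa6, which pattern the neck and the chest, shared fragments with each other. Hoxa3 stood at 1.47, 0.960 and 1.48 FPKM against 1.15, 1.71 and 2.02 FPKM, and its log2 fold change of 0.14 (SE 0.174, adjusted p = 0.490) was not called. Hoxa5 stood at 0.640, 0.940 and 0.780 FPKM against 1.17, 0.860 and 0.990 FPKM, with a log2 fold change of 0.51 (SE 0.213, adjusted p = 0.0697). Without LLC alone replicate 2, Hoxa5 was called higher, at 0.74 and an adjusted p of 0.00949. The 3 genes summed were whole in each library, at 444, 340 and 360 fragments in LLC alone and 515, 530 and 537 with BMSCs. As 1 feature they were higher by 0.36 on the log2 scale (SE 0.104, adjusted p = 0.0173). Hoxa2 had 14 to 20 fragments and Hoxa4 had 19 to 39 fragments per library, and neither was called, at adjusted p of 0.525 and 0.196. Hoxa11, with 0 to 5 fragments, and Hoxa6, with 0 to 7.35, were not tested.

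HoxB and HoxC genes had almost no fragments in LLC alone and more with BMSCs, all at low levels. The 8 HoxB genes together had 1 fragment in the 3 LLC alone libraries, on Hoxb6, and 190 in the 3 libraries with BMSCs, a ratio of 178 after normalisation with a 95% counting interval from 31.5 to 7062. The 8 HoxC genes had 48 fragments against 295, a ratio of 5.75 with an interval from 4.23 to 7.98. These intervals cover counting error only. Summed FPKM with BMSCs was 0.600 ± 0.135 for HoxB and 1.27 ± 0.147 for HoxC (SD, n = 3), against 25.3 ± 0.524 for HoxA and 60.1 ± 1.67 for HoxD. Every HoxB and HoxC gene thus stayed under 1 FPKM in every library. In sorted bulk cells, a few cells with much RNA of a gene and many cells with little of it cannot be told apart.

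Hoxb9 held most of the HoxB fragments. It had none in any LLC alone library and 44, 26 and 45 with BMSCs, at 0.370, 0.220 and 0.390 FPKM. Against a floor of 3 fragments per library, its mean with BMSCs was 11.7-fold higher, a bound that has no test of its own. The adjusted p of 0.000317 is that of the edgeR fit on the counts, which Hoxb9 entered only through LLC with BMSCs. The other HoxB genes were not tested. Hoxb3, Hoxb4, Hoxb7 and Hoxb8 had no fragment in LLC alone and had 9, 3 and 7, then 11, 3 and 2, then 4, 3 and 4, and then 5, 5 and 5 fragments with BMSCs. Against the same floor, their means were 1.93-, 1.62-, 1.12- and 1.53-fold higher. These values leave out the spread between libraries, and Hoxb3, Hoxb4 and Hoxb7 each had a library at or under the floor. Hoxb2, Hoxb5 and Hoxb6 had at most 3 fragments in every library, for which no fold is given.

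In HoxC, Hoxc6, which acts in the thorax and the mammary gland, had 13, 8 and 10 fragments in LLC alone and 46, 30 and 41 with BMSCs. Its FPKM values of 0.180, 0.160 and 0.140 against 0.680, 0.450 and 0.620 did not overlap, and its log2 fold change was 1.81 (SE 0.253, adjusted p = 0.000521). Hoxc4 had 2, 5 and 3 fragments against 16, 19 and 22 and was higher by 2.37 on the log2 scale (SE 0.400, adjusted p = 0.00136). Both genes were thus present at a trace in LLC alone and at a few times that level with BMSCs. Hoxc10, a gene of the hindlimb and lumbar region, had no fragment in LLC alone and 16, 11 and 12 with BMSCs. Against the floor of 3, its mean with BMSCs was 3.97-fold higher, again a bound without a test. The adjusted p of 0.000733 is that of the edgeR fit, which Hoxc10 entered only through LLC with BMSCs. Hoxc5 and Hoxc9 were too low to be tested. Hoxc5 had 3, 2 and 1 fragments against 16, 9 and 11, a ratio of 5.62 with a counting interval from 2.34 to 16.3, and Hoxc9 had 1, 0 and 0 against 8, 8 and 7, a ratio of 21.5 with an interval from 3.5 to 887. Hoxc8, Hoxc11 and Hoxc13 had no fragment in LLC alone and 0 to 7 per library with BMSCs.

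**Figure D4:**
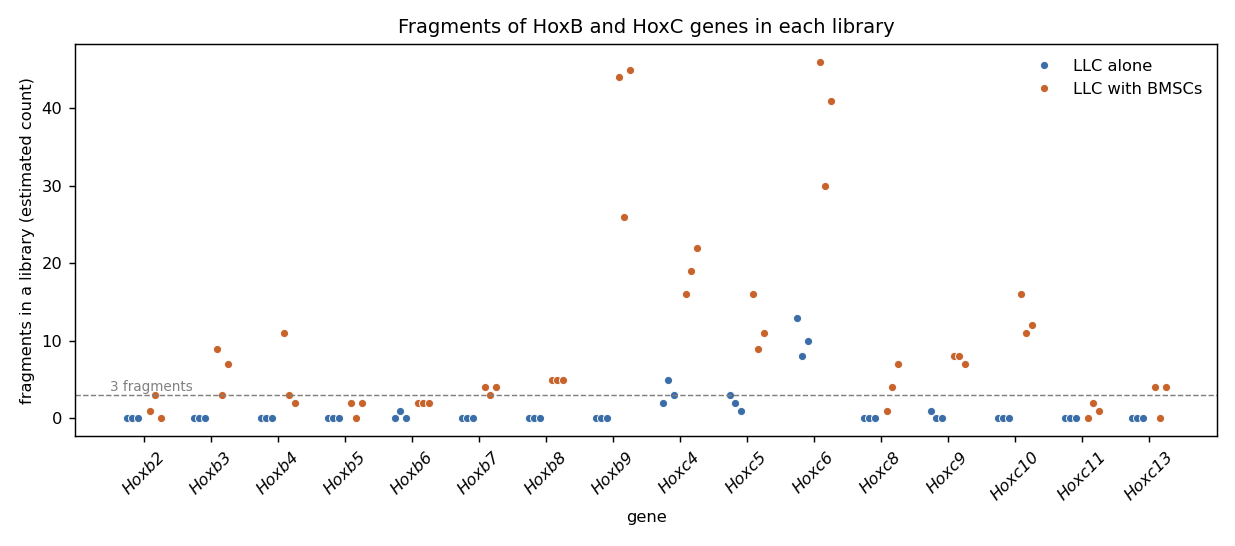
Fragments (y axis, estimated count) of each HoxB and HoxC gene (x axis) in each of the 6 libraries; the dashed line marks 3 fragments, the floor for a count of 0. Points of LLC alone lie at or near 0 except for Hoxc6, and those of LLC with BMSCs reach 45 for Hoxb9 and 46 for Hoxc6.

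Cell type markers differed between the groups beside the HoxB and HoxC fragments, and not all in the same direction. Of the stromal markers, 12 of 13 tested were higher with BMSCs, while Twist2 fell by 1.30 on the log2 scale (adjusted p = 2.34e-05). Over all genes tested, 31.5% were called higher and 31.3% lower. Col1a1, a fibroblast collagen, was at a mean of 0.0837 CPM in LLC alone and 11.7 CPM with BMSCs, and Dcn, a matrix proteoglycan, was at 0.197 and 11.4 CPM. Thy1 and Cxcl12 had no fragment in LLC alone and stood at means of 0.0225 and 0.202 CPM with BMSCs. Of 7 macrophage markers tested, 5 were higher and 1 was lower, against the same shares of all genes. Adgre1, Itgam and the stromal marker Lum had means of at most 0.071 CPM in LLC alone. They passed the filter on low counts only through LLC with BMSCs, so their direction was built into their passing. Adgre1 had no fragment in LLC alone and stood at a mean of 1.51 CPM with BMSCs, whereas Cd68 was lower, at means of 6.67 and 3.59 CPM (adjusted p = 0.0005), and Cd14, the most abundant, was at 15.4 and 16.1 CPM (adjusted p = 0.587). The muscle marker Des was lower with BMSCs, at 5.67 and 3.42 CPM (adjusted p = 0.00557). Summed over each cluster, HoxB was at 0 to 0.0300 CPM and 1.01 to 1.75 CPM, and HoxC at 0.307 to 0.450 CPM and 1.86 to 2.40 CPM, in LLC alone and LLC with BMSCs. With the stromal, neutrophil and macrophage sums given above, the part of these cells in the HoxB and HoxC result was not tested. The HoxD sum moved in the opposite direction, from 156 to 174 CPM in LLC alone to 127 to 129 CPM with BMSCs.

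The transcripts of Hoxd4 divided its fragments differently in the 2 groups. Hoxd4 had 5 transcripts in the files, 4 of them assembled by the authors' pipeline. The most abundant transcript with BMSCs took 37.7%, 36.3% and 29.3% of the fragments of the gene in LLC alone and 62.2%, 66.7% and 61.5% in LLC with BMSCs. Another took 41.1%, 41.8% and 39.0% in LLC alone and 18.2%, 14.4% and 15.3% with BMSCs. The shares of both transcripts kept apart between the groups, but the exact two-sided permutation test of 3 against 3 libraries cannot go below 0.1, the value it gave for the first. Over 8 HOX genes with several transcripts and at least 100 fragments in each library, 5 of 28 transcripts had shares that were higher with BMSCs without overlap and 5 had shares that were lower. Over all 17480 transcripts of such genes these percentages were 15.1% and 14.5%. A program divides fragments among overlapping transcripts by estimate, and the sources used here do not give the structure of the assembled ones.

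**Figure D5:**
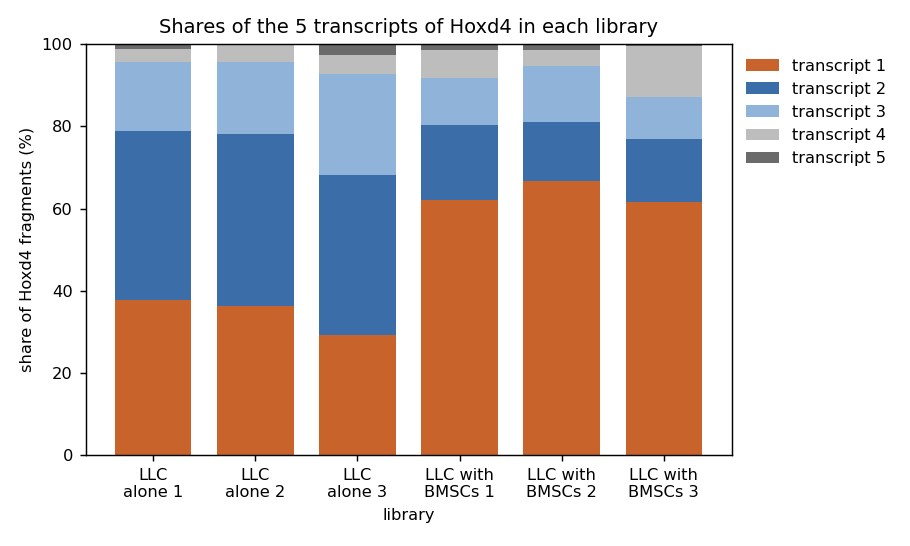
Share of Hoxd4 fragments (y axis, %) taken by each of its 5 transcripts, stacked for each library (x axis), numbered by their mean share with BMSCs. Transcript 1 covers 29.3% to 37.7% in LLC alone and 61.5% to 66.7% with BMSCs, and transcript 2 covers 39.0% to 41.8% and 14.4% to 18.2%.

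Genes that work with or around the HOX clusters were counted by list in the same fit, to be read against the 31.5% of all genes called higher and 31.3% called lower. Of the 9 TALE cofactors (Pbx, Meis and Pknox genes), all were tested, 4 were higher and none was lower, with a median log2 fold change of 0.19. Meis1, a HOX partner in blood and limb, was at 1.30, 1.24 and 1.44 FPKM in LLC alone and 2.72, 2.79 and 2.74 FPKM with BMSCs, and was higher by 1.03 (SE 0.0875, adjusted p = 4.21e-05). Of 8 Trithorax genes, 2 were higher and 2 lower, with a median of 0.19. Their most abundant genes were Psip1, which tethers the MLL complex to chromatin, higher by 0.34 (adjusted p = 0.00213), Ash2l, a core subunit of that complex, lower at -0.39 (adjusted p = 0.000401), and Wdr5, another core subunit, at -0.03 (adjusted p = 0.643). Of 14 Polycomb genes, 7 were higher and 2 lower, with a median of 0.10. Cbx7, a chromodomain gene of the Polycomb complex, was at 7.06, 7.17 and 7.34 FPKM against 12.1, 11.4 and 11.5 FPKM, with a log2 fold change of 1.39 in counts (SE 0.0602, adjusted p = 1.58e-06). The log2 ratio of its FPKM means was smaller, at 0.70, and the cause of that gap was not tested.

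Retinoic acid, the classical inducer of HOX genes, was covered by a list of 16 genes, of which 12 were tested. Of these 12, 4 were higher and 6 lower, against 31.5% and 31.3% of all genes, with a median log2 fold change of -0.15. Crabp1, a retinoic acid binding protein, had 15, 5 and 15 fragments in LLC alone and 154, 150 and 149 with BMSCs, a log2 fold change of 3.6 (SE 0.213, adjusted p = 7.06e-06). Stra6, the retinol uptake receptor, was higher by 2.0 (SE 0.154, adjusted p = 2.60e-05). Crabp2, a relative of Crabp1 that passes retinoic acid to the nucleus, stood at -1.10 (adjusted p = 0.0177), and the degrading enzyme Cyp26a1, at 3 to 14 fragments per library, stood at -1.27 (adjusted p = 0.0221). Aldh1a3, an enzyme that makes retinoic acid, had 18, 18 and 17 fragments against 4, 4 and 2 and a log2 fold change of -2.47 (SE 0.352, adjusted p = 0.000581). Cyp26a1 and Aldh1a3 passed the filter on low counts only through LLC alone, in which they were high, so a difference in that direction was built into their passing.

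Of 17 noncoding genes of the clusters, 2 had values and were tested. Hotairm1, a noncoding RNA of the HoxA cluster, stood at 4.30, 4.37 and 5.30 FPKM in LLC alone and 2.09, 2.08 and 2.22 FPKM with BMSCs. It fell by 1.15 on the log2 scale (SE 0.14, adjusted p = 0.000257). Hoxd3os1, on the strand opposite Hoxd3, was at -0.34 (SE 0.238, adjusted p = 0.239). Because the sources used here do not say whether the counting used strand, reads of such overlapping genes may not have been told apart. Of 14 genes with values that flank the clusters, 11 were tested, with a median of 0.03. Of these 11, 4 were higher and 2 lower, against 31.5% and 31.3% of all genes. The most abundant were Hnrnpa3 and Mtx2, next to HoxD, at -0.03 (adjusted p = 0.627) and 0.03 (adjusted p = 0.759), and Hibadh, next to HoxA, which was higher by 0.31 (adjusted p = 0.00835). The measured flanks of HoxD were thus not called, and the difference between them and Hoxd9 or Hoxd10 was not tested. The 7 para-Hox and Evx genes with values, relatives of the HOX genes outside or at the end of the clusters, had at most 4 fragments in any library, and none was tested.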

How the data were processed

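RNA sequencing of sorted LLC cells covered 2 groups of 3 libraries, with or without BMSCs, and groups and replicate numbers were taken from the sample labels. The authors deposited, for each library, estimated counts of fragments for genes and transcripts, without normalisation and divided among overlapping features, and FPKM values, which scale these counts by transcript length and library total. The submitters' processing notes name HISAT, StringTie, Cufflinks, GATK and the genome build mm8, without versions or roles, and the strand setting is not given in the sources used here. The paper's methods describe oligo-dT enrichment, so that only polyadenylated RNA was measured. They name a BGISEQ sequencing platform, whereas the labels name Illumina protocols for the libraries, and this conflict was not resolved here. The depth was 33476347 to 46189113 fragments on genes per library, and a count of 0 allows up to 3 fragments.

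After rounding of the estimated counts, edgeR 4.0.16 (R 4.3.3) gave TMM normalisation, the default filter on low counts and the quasi-likelihood test across all genes, with adjusted p values by Benjamini-Hochberg, called under 0.05. The test was also run on simulated counts with a common spread for all genes and few changed genes. These data differ from that setting, so the run does not show how well the test does here. The SE of a fold change was derived from it and the quasi-likelihood F value, whose square root equals their ratio. For genes without a fragment in a group, the mean of the other group was divided by 3 fragments per library, in place of the fitted fold change. This bound leaves out the spread between the libraries of the other group. Ratios of low counts have exact binomial 95% intervals. Levels between genes were compared in FPKM, and CPM and normalised counts are edgeR values scaled by effective library size.

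Genes were matched by NCBI identifier to RefSeq of GRCm38.p6 for names and neighbours (34 of 34 matched), and promoter sequences were matched by symbol for 20 of them. The 4 HOX genes of RefSeq outside the files, Hoxb1, Hoxb13, Hoxc12 and Hoxd1, were not analysed here. Of the genes that the symbol rule or the lists hold, 2 are not reported here. Every other HOX gene is accounted for, with the value of each library where its mean was at least 1 FPKM or its adjusted p was under 0.05. Genes of the related lists are named where the adjusted p was under 0.05 and the absolute log2 fold change at least 1, or else as the 3 of highest mean FPKM in a list. HOX genes with lower values that are named singly were named to complete their cluster. The members, lists and markers were chosen with earlier results of these data known. Alternatives were DESeq2 1.42.0, other scalings and filters, limma 3.58.1 on log2 FPKM with a pseudocount of 1 or 0.1 for genes that reached 1 FPKM in 3 libraries, a replicate block, removal of the trend over gene length, summing of libraries or genes, and leaving out each library.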

Additional observations from a re-analysis of the deposited data

How the results depend on the processing

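The count of 5 higher HOX genes was 12 with no filter on low counts, which brought in Hoxb3, Hoxb4, Hoxb7, Hoxb8, Hoxc5, Hoxc8 and Hoxc9, and 0 in edgeR with at least 10 counts in every library and in limma on log2(FPKM + 1) or log2(FPKM + 0.1). In those 3 settings only 12, 8 and 8 HOX genes were tested, with 1, 0 and 0 of them higher at an unadjusted p under 0.05, which left out Hoxa13 and all of HoxB and HoxC. The count of 5 lower genes was 1 when the log2 fold change also had to be 1 or more in size, leaving Hoxd11. Leaving out each library gave 4 to 7 higher and 4 to 6 lower HOX genes. Under every other alternative in which they were tested, Hoxa10, Hoxb9, Hoxc4, Hoxc6, Hoxc10, Hoxd3, Hoxd9 and Hoxd10 kept their call. Hoxb9, Hoxc4 and Hoxc10 passed the main filter only through LLC with BMSCs, in which they were high, so their kept calls add no separate support. The uncalled Hoxa7 changed sign to 0.013 with library size alone and ranged from -0.048 to 0.0688 when libraries were left out, above 0 without LLC alone replicate 3 or LLC with BMSCs replicate 2 or 3. The uncalled Hoxd8 changed sign with the trend over length removed, without or with the replicate block (0.0743 and 0.0739), and ranged from -0.0934 to 0.0109 when libraries were left out, above 0 without LLC alone replicate 3. The cause was not tested. DESeq2 lost Hoxa13 (adjusted p = 0.0573) and called Hoxa5, for 5 higher genes in all. With the trend over gene length removed, Hoxa9 and Hoxd4 were also called lower, for 7 lower genes without or with the replicate block. With the close libraries (LLC alone 1 and 2, LLC with BMSCs 2 and 3) summed, Hoxd11 was lost. Hoxc5 and Hoxc9 were gained there, for 7 higher and 4 lower genes. Over all genes, that setting called 3364 higher and 3301 lower, against 4210 and 4183 in the main fit. With the genes that share fragments summed, 6 of the 15 HOX features tested were higher and 4 lower. Deviations of same-numbered libraries had correlations of 0.0762, -0.106 and 0.0572, against -0.164 to 0.151 for other pairs. They showed no pairing by number, but 3 libraries per group cannot exclude it. With the replicate block, 6 HOX genes were higher and 5 lower, with Hoxa5 gained (adjusted p = 0.0397). The related lists held 21 higher and 13 lower genes. The lower count was 8 with the close libraries summed, and leaving out each library gave 7 to 13. Genes at 1 FPKM or more in LLC alone numbered 7 to 10 under the other limits. Depth limits HoxB and HoxC, whose genes had at most 46 fragments in a library.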
